A study of Mus musculus with 20 samples.

Results

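Natural killer cells (NK cells) are innate lymphocytes that kill infected or transformed cells and release interferon gamma. They depend on a small set of cytokine receptors. Il2rb and Il2rg form the signalling pair for Il2 and Il15, Il15ra holds Il15 and presents it to neighbouring cells, and Il21r joins Il2rg to bind Il21. Jak3 is the kinase attached to Il2rg. Il12rb1 and Il12rb2 bind Il12 and activate the transcription factor Stat4, while Il18r1 and Il18rap bind Il18 and signal through Myd88, and the last 2 inputs together are a strong trigger of Ifng in mouse NK cells. The 10 genes Il2rb, Il2rg, Il15ra, Il21r, Il12rb1, Il12rb2, Il18r1, Il18rap, Jak3 and Stat4 are described here. They were chosen by name, and every probe carrying 1 of these names was taken, which gave 14 of the 41174 probes on the array. Of these, 13 were among the 25046 probes tested, which were those well above background on 5 or more arrays.

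The mice were male C57BL/6 animals in 4 sets of 5, and all were gavaged once a day for 14 days. The first set received ptaquiloside, a bracken fern toxin, at 5.3 mg/kg. Another received selenium, a trace element, at 1.3 mg/kg. The combined set, written ptaquiloside+selenium, received both at the same doses, and the control set received water. NK cells were then obtained from each spleen by negative magnetic selection, which leaves the wanted cells unlabelled, so every set shares that enrichment step. RNA of 1 mouse was hybridised to 1 array, and mice with the same number lay on the same slide, with each treatment at a fixed position on the slide, so that position and treatment cannot be told apart. Levels below are log2 processed signal minus the 75th percentile of the same array, so a level of 0 is a signal at that percentile. A level is compared between mice for the same probe and not between probes.

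The array of ptaquiloside mouse 4 stood apart. Its 75th percentile was 10.5 intensity units and 36.3% of spots were well above background, against 45.5 to 133 units and 51.7% to 60.8% on the other 19 arrays. Its correlation with the others was 0.458 to 0.662 over the tested probes, against at least 0.892 among those 19. The next dimmest was ptaquiloside+selenium mouse 5, at 45.5 units and 55.0% of spots. Its highest correlation with any array was 0.944, against at least 0.977 for each remaining array besides ptaquiloside mouse 4. The differences of the 10 genes from control are given with and without these arrays where leaving them out turns a sign. All 10 NK markers, among them Ncr1, Klrb1c and Eomes, were well above background on every control and selenium array. At least 9 of 10 were on ptaquiloside+selenium arrays, and the lowest count was 8 of 10, on ptaquiloside mouse 4. Markers of other cells were detected as well. Every control array had 10 of 10 T cell, at least 9 of 10 B cell, 8 of 8 neutrophil and 8 of 8 macrophage and monocyte markers well above background. Detection of markers therefore gives no measure of purity.

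The probes set what can be read, and 6 of the 14 sequences are shown because results turn on how they read. The 2 Il15ra probes overlap by 17 bases, given in capitals, and both span introns, since 60 bases lie over 6502 and 6987 bases of the genome. Of the 2 Il18rap probes, the first was well above background on every array and the other, 26.7% GC, on none. The Il12rb2 and Il2rg probes read low on ptaquiloside+selenium mouse 5. All are 60 bases, written 5′ to 3′ as in the array files, with positions on mm9.
Il15ra, A_52_P55902, chr2:11645753-11652254, plus strand: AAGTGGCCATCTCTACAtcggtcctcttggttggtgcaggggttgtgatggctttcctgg
Il15ra, A_51_P202292, chr2:11645225-11652211, plus strand: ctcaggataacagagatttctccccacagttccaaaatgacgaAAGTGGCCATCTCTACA
Il18rap, A_52_P517098, chr1:40605729-40605788, plus strand: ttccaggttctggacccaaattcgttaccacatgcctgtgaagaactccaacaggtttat
Il18rap, A_52_P255577, chr1:40582730-40582789, plus strand: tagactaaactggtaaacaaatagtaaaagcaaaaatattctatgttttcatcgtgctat
Il12rb2, A_52_P325706, chr6:67242362-67242421, minus strand: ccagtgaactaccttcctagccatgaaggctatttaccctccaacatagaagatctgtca
Il2rg, A_51_P456952, chrX:98461022-98461535, minus strand: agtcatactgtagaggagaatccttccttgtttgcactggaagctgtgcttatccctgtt

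The remaining probes lie at chr15:78311109-78311168 on the minus strand (Il2rb), chr7:132776151-132776210 (Il21r), chr8:73345189-73345248 (Il12rb1), chr1:40557541-40557600 (Il18r1) and chr1:52163802-52163861 (Stat4), all 4 of these last on the plus strand. Jak3 has 3 probes on the plus strand. Those at chr8:74214308-74214367 and chr8:74214085-74214144 also carry an accession of Insl3 in the array files, so signal from that gene cannot be told apart there, and the one at chr8:74210826-74211151 carries Jak3 alone. Exon, intron and UTR annotation of this build was not used here. Where a gene has several probes, the brightest tested one is given unless another is named.

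No probe of the 10 genes passed adjusted p = 0.05 in limma in any comparison between groups. The fit takes the spread between mice within groups and does not pair mice by slide. In limma fits over all 25046 probes, 0 probes (0%) passed adjusted p = 0.05 in ptaquiloside, selenium or ptaquiloside+selenium against control, in ptaquiloside+selenium against ptaquiloside or selenium, in the interaction of the treatments, or in the test of any difference among the 4 groups. At unadjusted p under 0.05 the fit held 420 probes (1.68%) for ptaquiloside, 272 (1.09%) for selenium and 57 (0.228%) for ptaquiloside+selenium, each against control. The other tests held 655 (2.62%) for ptaquiloside+selenium against ptaquiloside, 158 (0.631%) for ptaquiloside+selenium against selenium, 340 (1.36%) for the interaction and 257 (1.03%) for any difference. None of the 13 probes of the 10 genes was among them. The smallest adjusted p of any of the 10 genes was 0.800 in ptaquiloside against control. Likewise, no member had a treated group lying wholly above or below control. That held over all probes for 0.0759% higher and 0.0918% lower with ptaquiloside, for 0.212% and 0.315% with selenium, and for 0.0599% and 0.0878% with ptaquiloside+selenium. Because the cells were measured in bulk, fewer cells of a type and less RNA per cell cannot be told apart in any of these levels.

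Il2rb, the beta chain that sets how strongly NK cells sense Il15, was well above background in all 20 mice. Its level was 8.07, 7.60, 7.49, 6.22 and 7.73 in ptaquiloside mice 1 to 5, 7.86, 8.04, 7.72, 7.58 and 7.54 in selenium mice, 7.41, 7.60, 7.56, 7.68 and 7.85 in ptaquiloside+selenium mice and 7.79, 7.42, 7.53, 7.28 and 7.35 in control mice. Ptaquiloside mouse 4 was the lowest of all 20, ptaquiloside mouse 1 the highest, and all groups overlapped. Against the control mouse of the same slide, selenium was higher on 5 of 5 slides, by 0.067 to 0.62. Ptaquiloside was higher on 3 and ptaquiloside+selenium on 4. How many of all probes were higher on 5 of 5 slides was not counted, here and below. The mean of Il2rb was 7.75 ± 0.21 with selenium, against 7.47 ± 0.20 in control mice (SD, n = 5 each). The difference from control was 0.27 (95% interval -0.27 to 0.82) with selenium and 0.15 (95% interval -0.40 to 0.69) with ptaquiloside+selenium. With ptaquiloside it was -0.050 (95% interval -0.59 to 0.49), and 0.25 (95% interval -0.077 to 0.58) without mouse 4.

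Il2rg, the common gamma chain shared by the receptors for Il2, Il4, Il7, Il9, Il15 and Il21, was the least spread member in 18 arrays and the most spread in 20. Its level was 2.90, 3.03, 3.17, -0.99 and 2.73 in ptaquiloside mice 1 to 5, 3.27, 3.10, 2.94, 3.17 and 2.87 in selenium mice, 3.05, 3.11, 3.27, 3.07 and 0.87 in ptaquiloside+selenium mice and 3.06, 2.96, 3.16, 2.70 and 2.72 in control mice. Of these values 18 lay between 2.70 and 3.27, and the other 2 were ptaquiloside mouse 4, where the probe was not well above background, and ptaquiloside+selenium mouse 5. The within-group SD was 1.03 over 20 arrays, 0.55 without ptaquiloside mouse 4 and 0.17 without both. Against control, the difference was -0.75 (95% interval -2.03 to 0.53) with ptaquiloside and 0.037 (95% interval -0.70 to 0.77) without mouse 4. With ptaquiloside+selenium it was -0.25 (95% interval -1.53 to 1.03), and 0.20 (95% interval -0.080 to 0.49) without both dim arrays.

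Il15ra, the high-affinity Il15 chain, had a level of -0.59, -0.61, -0.33, 1.93 and -0.28 in ptaquiloside mice 1 to 5, -0.79, -0.62, -0.62, -0.37 and -0.42 in selenium mice, -0.73, -0.86, -0.51, -0.62 and -0.44 in ptaquiloside+selenium mice and -0.67, -0.87, -0.37, -0.23 and -0.52 in control mice. Ptaquiloside mouse 4 stood more than 2 log2 units above every other mouse, and the other 19 values overlapped. Before scaling, the signal of that mouse was not high. It was 39.9 units, against 33.6 on ptaquiloside+selenium mouse 5 and 58.2 to 95.7 on the rest. The level is set relative to that array's 75th percentile of 10.5 units. The ptaquiloside difference from control was 0.55 (95% interval -0.18 to 1.29) with that mouse and 0.077 (95% interval -0.24 to 0.40) without it. Of the 10 genes, Il15ra had the smallest p in ptaquiloside+selenium against ptaquiloside, with a difference of -0.65 (95% interval -1.39 to 0.082). Without mouse 4 it was -0.18 (95% interval -0.50 to 0.14). Within slides the brighter probe was lower on 5 of 5 in that contrast, from -2.545 to -0.14, and the second probe on 3. Against control, the brighter probe was higher with ptaquiloside on 5 of 5 slides, from 0.035 to 2.16, and the second probe on 3. The second probe, which shares the 17 bases, read -1.73 on ptaquiloside mouse 4, not well above background there, against -2.55 to -2.13 in the other ptaquiloside mice and -2.88 to -2.20 in control. The probes had opposite signs with selenium, -0.033 for the brighter and 0.039 for the other, each smaller than its standard error of 0.35 and 0.28.

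Il21r, which with Il2rg forms the receptor for Il21, had the largest selenium difference of the 10 genes. Its level was 2.64, 2.71, 1.86, 0.91 and 2.12 in ptaquiloside mice 1 to 5, 2.70, 3.10, 2.25, 2.59 and 2.61 in selenium mice, 2.55, 2.75, 2.83, 2.42 and 1.59 in ptaquiloside+selenium mice and 2.68, 2.13, 2.09, 2.27 and 1.97 in control mice. Selenium mouse 2 was the highest of all and ptaquiloside mouse 4 the lowest. Control mouse 1 lay above 3 of the 5 selenium mice, so the groups overlapped across slides. Against the control mouse of the same slide, selenium was higher on 5 of 5 slides, by 0.020 to 0.97. Ptaquiloside was higher on 2 and ptaquiloside+selenium on 3. The mean of Il21r was 2.65 ± 0.30 with selenium, against 2.23 ± 0.27 in control mice (SD, n = 5 each). The difference was 0.42 (95% interval -0.23 to 1.07) with an adjusted p of 1 in limma. Without both dim arrays the interval narrowed to 0.014 to 0.83, the only one among the 10 genes and the 6 contrasts to exclude 0, at an unadjusted p of 0.0436 in limma and an adjusted p of 1.00. The ptaquiloside+selenium difference from control was 0.20 (95% interval -0.45 to 0.85), or 0.41 (95% interval -0.023 to 0.84) without both dim arrays, and the ptaquiloside one -0.18 (95% interval -0.83 to 0.47), or 0.10 (95% interval -0.43 to 0.63) without mouse 4.

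**Figure D1:**
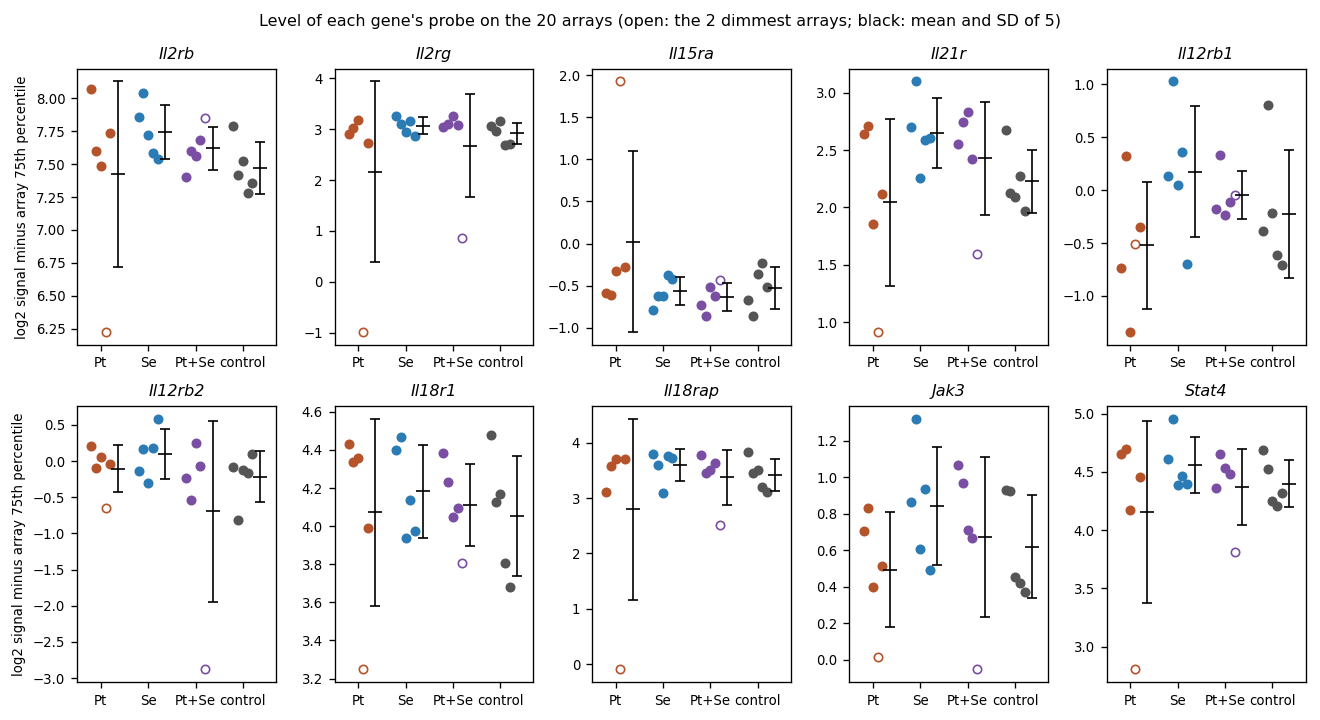
Level of each gene's probe (vertical axis, log2 signal, 0 at the 75th percentile of the array) in the 5 mice of each group, ordered by mouse number within ptaquiloside (Pt), selenium (Se), ptaquiloside+selenium (Pt+Se) and control; open points are ptaquiloside mouse 4 and ptaquiloside+selenium mouse 5, and black bars give the mean and SD of all 5. Filled points of all groups overlap for every gene. Open points lie apart for Il2rg (-0.99 and 0.87), Il18rap, Stat4, Il12rb2 (-2.88) and, upward, Il15ra. The lowest point of Il2rb, of Il21r, of Il18r1 and of Jak3 is also an open one. Axes differ between panels and do not start at 0.

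Il12rb1, the Il12 receptor chain shared with the Il23 receptor, had the same slide at the top in every group. Its level was -0.74, 0.32, -1.34, -0.51 and -0.35 in ptaquiloside mice 1 to 5, 0.13, 1.03, 0.053, 0.36 and -0.69 in selenium mice, -0.18, 0.33, -0.23, -0.11 and -0.045 in ptaquiloside+selenium mice and -0.39, 0.80, -0.22, -0.62 and -0.70 in control mice. Mouse 2 was the highest in all 4 groups, with a mean of 0.62 over its slide, and the groups overlapped. Against the control mouse of the same slide, selenium was higher on 5 of 5 slides, by 0.0098 to 0.97. Ptaquiloside was higher on 2 and ptaquiloside+selenium on 3. Against ptaquiloside, ptaquiloside+selenium was higher on 5 of 5 slides, by 0.014 to 1.11. The range of the group means ran from 0.18 ± 0.62 with selenium to -0.52 ± 0.60 with ptaquiloside (SD, n = 5 each). Against control, selenium differed by 0.40 (95% interval -0.31 to 1.11), ptaquiloside by -0.30 (95% interval -1.01 to 0.41) and ptaquiloside+selenium by 0.18 (95% interval -0.53 to 0.89). Il12rb1 was 1 of 2 genes, with Jak3, whose ptaquiloside difference from control was negative both with and without mouse 4, at -0.30 and -0.0070 without it.

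Il12rb2 is the chain that docks Stat4 and gives Il12 signalling its specificity. Its level was 0.21, -0.091, 0.058, -0.65 and -0.044 in ptaquiloside mice 1 to 5, -0.13, 0.17, -0.31, 0.18 and 0.59 in selenium mice, -0.23, -0.54, 0.25, -0.074 and -2.88 in ptaquiloside+selenium mice and -0.083, -0.82, -0.12, -0.16 and 0.10 in control mice. The lowest of all was ptaquiloside+selenium mouse 5, more than 2 log2 units under the next, which was control mouse 2, and the groups overlapped. Its mean was -0.69 ± 1.25 with ptaquiloside+selenium (SD, n = 5), or -0.15 ± 0.33 without that mouse (n = 4), against -0.22 ± 0.35 in control mice (n = 5). The difference from control was -0.48 (95% interval -1.36 to 0.40) over all arrays and 0.067 (95% interval -0.37 to 0.51) without both dim arrays. Of the 10 genes, Il12rb2 had the smallest p in ptaquiloside+selenium against selenium, at -0.79 (95% interval -1.68 to 0.088), and in the interaction, at -0.91 (95% interval -2.16 to 0.34). Without both dim arrays these were -0.25 (95% interval -0.69 to 0.19) and -0.50 (95% interval -1.12 to 0.12), and over all arrays the adjusted p in limma was at least 0.997 in both contrasts. With ptaquiloside alone Il12rb2 differed from control by 0.11 (95% interval -0.77 to 1.00), or 0.25 (95% interval -0.68 to 1.17) without mouse 4, and with selenium by 0.32 (95% interval -0.57 to 1.20).

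Stat4 carries the Il12 signal to the nucleus. Its level was 4.66, 4.70, 4.17, 2.80 and 4.46 in ptaquiloside mice 1 to 5, 4.61, 4.96, 4.39, 4.46 and 4.39 in selenium mice, 4.37, 4.66, 4.53, 4.48 and 3.81 in ptaquiloside+selenium mice and 4.69, 4.52, 4.25, 4.20 and 4.32 in control mice. Ptaquiloside mouse 4 and ptaquiloside+selenium mouse 5 were the 2 lowest of 20, and the other values overlapped across groups. Mouse 2 was the highest in 3 of the 4 groups. The difference from control was 0.16 (95% interval -0.45 to 0.78) with selenium and -0.027 (95% interval -0.64 to 0.58) with ptaquiloside+selenium, or 0.11 (95% interval -0.21 to 0.44) without both dim arrays. With ptaquiloside it was -0.24 (95% interval -0.85 to 0.37), and 0.098 (95% interval -0.29 to 0.48) without mouse 4.

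Il18r1, the Il18-binding chain, had a distance of 0.13 between its highest and lowest group mean over 20 arrays, against a within-group SD of 0.33. Without ptaquiloside mouse 4 the distance was 0.23, against an SD of 0.25. It ranged from 3.25 to 4.43 in ptaquiloside, 3.94 to 4.47 in selenium, 3.81 to 4.38 in ptaquiloside+selenium and 3.68 to 4.48 in control. Ptaquiloside mouse 4 was again the lowest, and mouse 1 the highest in 3 of the 4 groups. The difference from control was 0.021 (95% interval -0.47 to 0.51) with ptaquiloside, or 0.23 (95% interval -0.15 to 0.60) without mouse 4. It was 0.13 (95% interval -0.36 to 0.62) with selenium and 0.060 (95% interval -0.43 to 0.55) with ptaquiloside+selenium, or 0.14 (95% interval -0.22 to 0.50) without both dim arrays.

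Il18rap, the accessory chain needed for Il18 signalling, was read by the bright probe shown above. Its level was 3.10, 3.58, 3.72, -0.097 and 3.71 in ptaquiloside mice 1 to 5, 3.79, 3.61, 3.09, 3.76 and 3.72 in selenium mice, 3.78, 3.45, 3.51, 3.63 and 2.51 in ptaquiloside+selenium mice and 3.84, 3.46, 3.52, 3.20 and 3.10 in control mice. Of these values 19 lay between 2.51 and 3.84, and ptaquiloside mouse 4 lay at -0.097. The difference from control with ptaquiloside was -0.62 (95% interval -1.73 to 0.48), and 0.10 (95% interval -0.40 to 0.60) without mouse 4. With selenium it was 0.17 (95% interval -0.93 to 1.27) and with ptaquiloside+selenium -0.046 (95% interval -1.15 to 1.06), or 0.17 (95% interval -0.22 to 0.56) without both dim arrays. The second probe was not well above background on any of the 20 arrays and gives no fold.

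Jak3, the kinase of the common gamma chain, was read by 3 probes. The level of the brightest probe was 0.70, 0.83, 0.40, 0.016 and 0.51 in ptaquiloside mice 1 to 5, 0.86, 1.32, 0.61, 0.94 and 0.49 in selenium mice, 1.07, 0.97, 0.71, 0.67 and -0.053 in ptaquiloside+selenium mice and 0.93, 0.92, 0.45, 0.42 and 0.37 in control mice. Ptaquiloside+selenium mouse 5 and ptaquiloside mouse 4 were the 2 lowest, selenium mouse 2 the highest, and the groups overlapped. For the 3 probes, differences from control were -0.13, -0.17 and -0.16 with ptaquiloside, and -0.0070, -0.012 and -0.12 without mouse 4. On the array of that mouse the 2 dimmer probes were not well above background. With selenium they were 0.22, 0.28 and 0.18, the middle value in each case from the probe that carries no Insl3 accession. With ptaquiloside+selenium the signs differed, at 0.053, 0.18 and -0.017, and without both dim arrays the values were 0.23, 0.30 and 0.20. The standard error of each of the 9 differences over 20 arrays was 0.24 to 0.25.

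Set beside each other, the 10 genes had their highest group mean in selenium in 9 cases, Il15ra being the exception, and their lowest in ptaquiloside in 7. For 5 of the 10 the whole range of the 4 group means was smaller than the within-group SD. The orders themselves were not tested. Without both dim arrays selenium was highest for 6 genes and control was lowest for 7. The median difference from control was 0.20 with selenium, positive for 9 genes of 10, where all probes had a median of -0.0021 and 49.6% above 0. With ptaquiloside it was -0.15, positive for 3 of 10, and without mouse 4 0.099, positive for 8 of 10, where all probes had -0.022 and -0.011. With ptaquiloside+selenium it was 0.013, positive for 5 of 10, where all probes had 0.0085. Without both dim arrays it was 0.15, positive for 9 of 10. The 3 differences share the control mice, and each is given for itself.

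**Figure D2:**
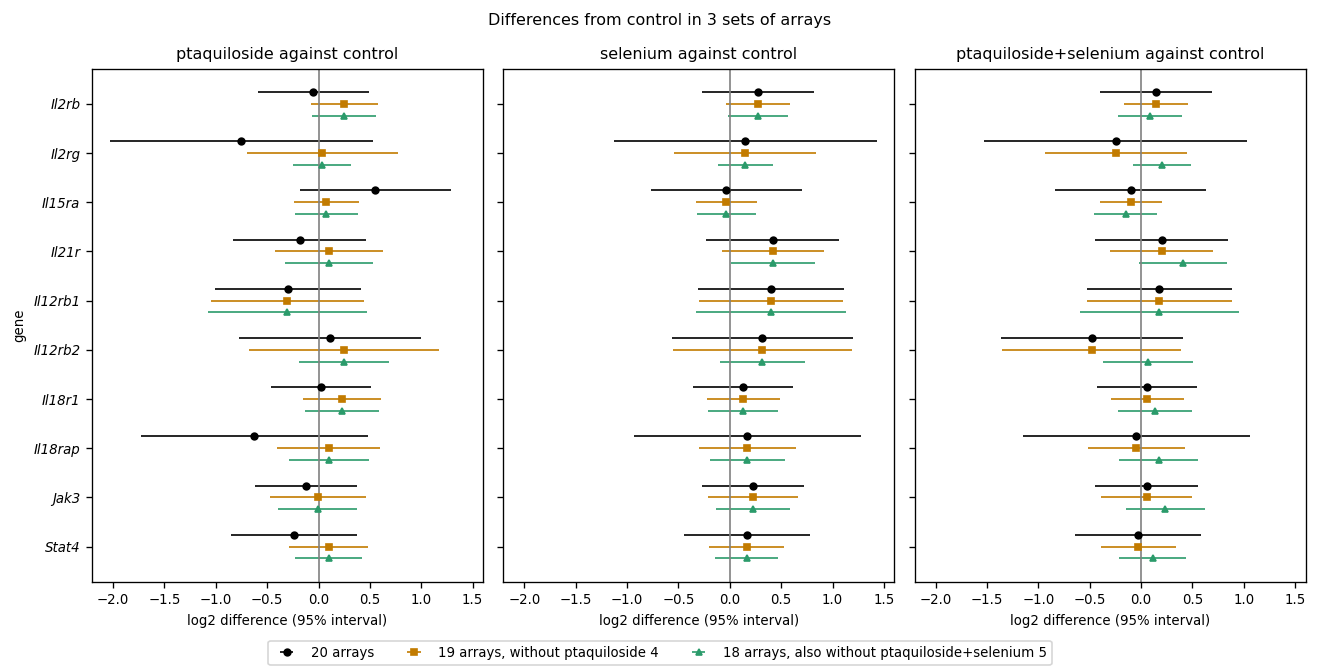
Log2 difference from control (horizontal axis) with its 95% interval for each gene, in ptaquiloside, selenium and ptaquiloside+selenium, over all 20 arrays (black circles), without ptaquiloside mouse 4 (orange squares) and also without ptaquiloside+selenium mouse 5 (green triangles). Over 20 and 19 arrays every interval crosses 0, and over 18 arrays that of Il21r with selenium does not; Il2rg and Il18rap with ptaquiloside sit at -0.75 and -0.62 with all arrays and at 0.037 and 0.10 without mouse 4.

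The remaining contrasts also turned on the dim arrays. Ptaquiloside+selenium against ptaquiloside gave a median of 0.20 over the 10 genes, 8 positive, and -0.14, 3 positive, without ptaquiloside mouse 4. Without both dim arrays it was 0.042, 6 positive. Ptaquiloside+selenium against selenium gave -0.20, with all 10 negative between -0.79 and -0.068, and -0.032 with 7 negative without both dim arrays. The interaction, which asks whether ptaquiloside acts differently with selenium than without it, had a median of -0.042 with 6 negative. Without ptaquiloside mouse 4 it was -0.31 with 9 negative, and without both it was -0.13 with 7 negative. The shares of all tested probes are not given beside these counts, so the counts cannot be read as a trait of the 10 genes.

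The 2 dim arrays lay at different distances from their slide mates for different genes. On ptaquiloside mouse 4, 9 of the 10 genes were under the mean of their slide mates, with a median of -1.03. Il2rg, not well above background there, was lowest at -3.97, a value that 2.17% of tested probes undercut, so its distance has only a bound. Il18rap followed at -3.63, undercut by 3.33%. Il15ra was at 2.33, and all tested probes had a median of 0.017 with 5th and 95th percentiles of -3.28 and 3.62. On ptaquiloside+selenium mouse 5, Il12rb2 was at -3.10, undercut by 0.0599% of probes, and Il2rg at -1.90, undercut by 1.03%, while all probes ran from -1.23 to 1.91 between those percentiles. Il2rb and Il12rb1 were above their slide mates on that array, at 0.31 and 0.54. The median within-group SD of the 10 genes was 0.51 over 20 arrays, 0.34 over 19 and 0.25 over 18, beside 0.58, 0.39 and 0.35 for all probes.

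**Figure D3:**
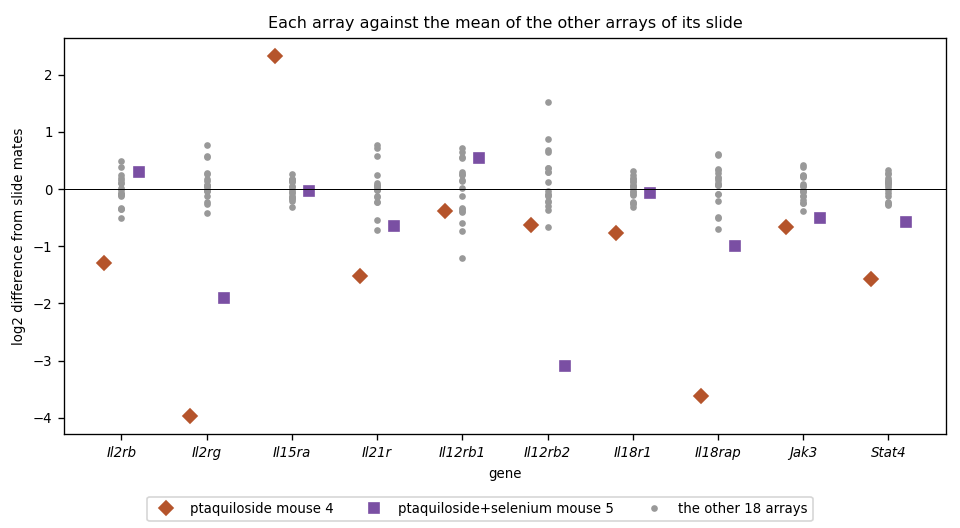
Log2 difference of each array from the mean of the other arrays of its slide (vertical axis; ptaquiloside mouse 4 was left out of these means), for the 10 genes, with ptaquiloside mouse 4 as diamonds, ptaquiloside+selenium mouse 5 as squares and the other 18 arrays as grey points. Diamonds fall under 0 for 9 genes, down to -3.97 for Il2rg, whose probe was not well above background there, and lie at 2.33 for Il15ra; the square of Il12rb2 lies at -3.10.

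Around these receptors, 72 other genes of the pathway were read in 6 lists, of which 69 were tested and 0 were called in any comparison. With ptaquiloside 17 of the 69 were above control and 52 below, with a median of -0.18, beside -0.022 for all tested probes. Without mouse 4 the counts were 47 and 22, with a median of 0.056. With selenium 44 were above and 25 below, and with ptaquiloside+selenium 31 and 38, where all tested probes had medians of -0.0021 and 0.0085. Other receptor chains (17 tested) had medians of -0.17 with ptaquiloside (0.040 without mouse 4), -0.067 with selenium and 0.019 with ptaquiloside+selenium. Il2ra, the alpha chain that raises affinity for Il2, differed by 0.41 (SE 0.33) with selenium, and Il7r, the Il7 receptor, by -0.31 (SE 0.24).

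Among 9 tested ligands, 6 were above control with ptaquiloside (3 without mouse 4), 4 with selenium and 2 with ptaquiloside+selenium. Ifnb1, a type I interferon, averaged -0.90 ± 2.29 with ptaquiloside, against -2.41 ± 1.31 in control (SD, n = 5 each), a difference of 1.51 (SE 0.85), or 1.79 (SE 0.91) without mouse 4. Ifng, the main NK cytokine, averaged 5.97 ± 0.76 with selenium, against 5.43 ± 0.94 in control, and differed by 0.54 (SE 0.53). Il18 itself differed by -0.49 (SE 0.27) with selenium. Each of these differences had an adjusted p of at least 0.800 in limma.

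Of the 9 other kinases and Stats, 2 were above control with ptaquiloside and 6 without mouse 4, and 8 were with selenium. Stat3, used by Il21 and Il6 receptors, averaged 7.83 ± 0.49 with ptaquiloside, against 7.24 ± 0.28 in control, a difference of 0.58 (SE 0.27) with an adjusted p of 0.800. It was 0.43 (SE 0.25) without mouse 4. Jak1, partner of Jak3, differed by -0.59 (SE 0.39) with ptaquiloside, and by -0.061 (SE 0.17) without mouse 4.

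The 13 brakes of the pathway had medians of -0.15 with ptaquiloside (0.071 without mouse 4), 0.13 with selenium and -0.013 with ptaquiloside+selenium (0.010 without both dim arrays). Cish, a Stat5-induced inhibitor that restrains Il15 signalling in NK cells, averaged 3.73 ± 0.44 with selenium, against 3.37 ± 0.46 in control, a difference of 0.37 (SE 0.30). Il18bp, the secreted decoy for Il18, differed by -0.41 (SE 0.20) in ptaquiloside+selenium against selenium, and by -0.26 (SE 0.15) without both dim arrays. The 8 tested genes of the Il18 relay, Myd88 and 7 genes that act after it, had medians of -0.32, 0.061 and -0.081 in the same 3 comparisons with control, and 0.028 with ptaquiloside without mouse 4.

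Among 13 targets, 2 were above control with ptaquiloside, or 11 without mouse 4, and 11 were with selenium. Bcl2, a survival gene maintained by Il15, averaged 2.98 ± 0.45 with selenium, against 2.59 ± 0.37 in control, a difference of 0.39 (SE 0.26). Ccnd2, a cyclin of cytokine-driven proliferation, differed by 0.53 (SE 0.45) with selenium, and Pim1, a kinase induced by Stat5, by -0.72 (SE 0.42) with ptaquiloside, or -0.23 (SE 0.29) without mouse 4. None of these 69 genes passed adjusted p = 0.05 in limma.

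Markers of other spleen cells also differed in value between groups, and their part in the levels above was not tested. With selenium all 10 T cell markers and all 10 B cell markers were below control, with medians of -0.44 and -1.03. The largest were Cd8b1 at -1.98 (SE 0.79) and Ebf1 at -2.00 (SE 0.71), and 0 were called. The summed linear level of the B cell markers ran from 7.43 to 20.2 array 75th percentiles with selenium and from 16.8 to 46.3 in control, and that of the T cell markers from 6.48 to 9.29 with selenium and from 6.52 to 17.5 in control. All 10 NK markers were above control with selenium, with a median of 0.22 and summed levels of 303 to 613, against 241 to 425 in control. Macrophage and monocyte markers summed to 361 to 543 with selenium and 471 to 653 in control. For dendritic cell markers the sums were 189 to 279 and 276 to 307, and for neutrophil markers 163 to 704 and 189 to 375. With ptaquiloside the 8 neutrophil markers had a median difference from control of -0.64, or -0.21 without mouse 4. Their mean log2 level was 1.21 on ptaquiloside mouse 4, against 2.44 to 3.08 in the other ptaquiloside mice. The T cell marker Cd3e averaged -2.25 ± 0.43 with selenium and -2.13 ± 0.51 in control.

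**Figure D4:**
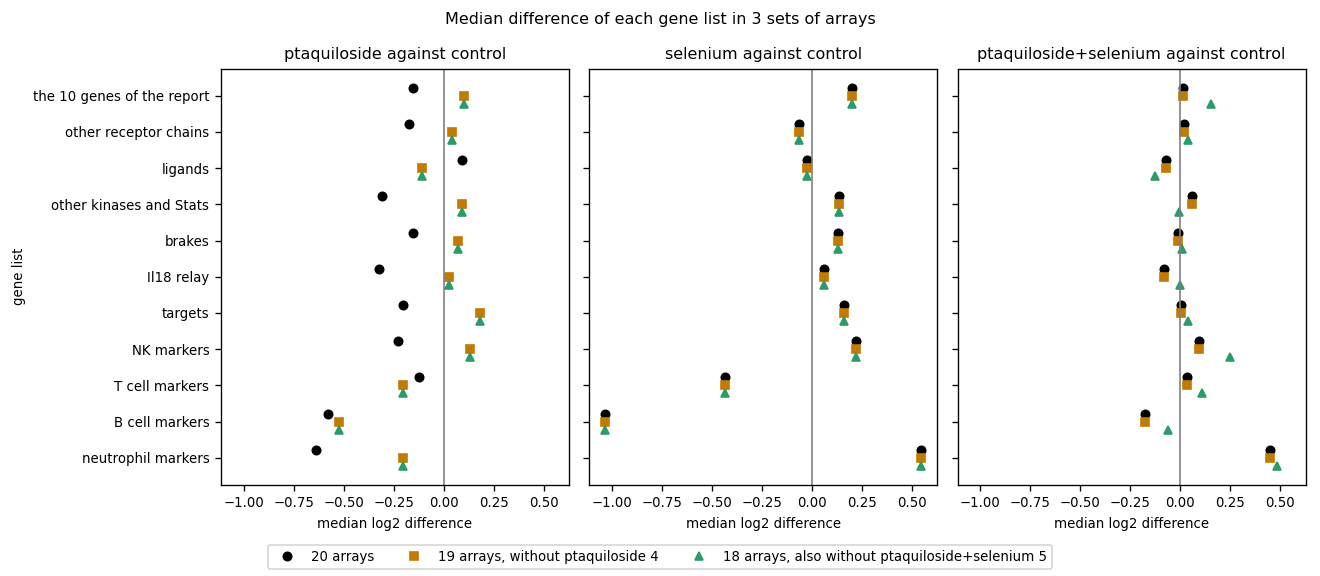
Median log2 difference from control (horizontal axis) of the 10 genes, of 6 lists of related genes and of 4 marker lists, over all 20 arrays (circles), without ptaquiloside mouse 4 (squares) and also without ptaquiloside+selenium mouse 5 (triangles). With ptaquiloside the median of the 10 genes is -0.15 with and 0.099 without mouse 4. With selenium it is 0.20, beside 0.22 for NK markers and -1.03 for B cell markers. Neither array left out is a selenium or control array, so the selenium medians are the same in all 3 sets by design.

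Genes whose pattern over the arrays was most like the mean of the 10 were sought among 12505 others by Pearson correlation over the 19 arrays without ptaquiloside mouse 4. They were Slc9a3r1 (r = 0.956), D16Ertd472e (r = 0.953), Dbnl (r = 0.936), Prf1 (r = 0.935) and Gramd1b (r = 0.930). Over all 20 arrays their r was 0.949, 0.890, 0.879, 0.929 and 0.955 in the same order, and without both dim arrays 0.886, 0.910, 0.831, 0.865 and 0.870. Prf1, which encodes perforin, is also in the list of targets. The points share slides and array scaling, and these values are descriptions of the arrays.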

How the data were processed

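Splenic NK cell RNA of 20 mice was measured on 1-colour Agilent arrays. Per the submitters' processing notes, spots were read with Agilent Feature Extraction 9.5.3.1. Per the file headers, the processed signal is a background-subtracted intensity, not scaled between arrays, and the flag columns used here mark control spots, outliers and spots well above background. The authors also deposited log2 values. Compared with the scans, each column is the unscaled log2 signal raised by 19.9 (medians 22.8 to 23.6). Its control columns are mice 2 to 5 and their mean, and its ptaquiloside columns are mice 1, 2, 3 and 5 and their mean, so it served as an alternative only.

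From the intensities, each array's log2 signals were set relative to their 75th percentile over spots that are not controls, control and outlier spots were left out, and spots of a probe were averaged. The 25046 probes well above background on at least 5 arrays were fitted with limma 3.58.1 (R 4.3.3, data.table in version 1.17.8), 1 mean per group, two-sided, with Benjamini-Hochberg adjustment over all of them in each of 7 tests and a threshold of 0.05. Scripts were tested on simulated data. Of the probes, 25097 of 41174 were named through their accession among RefSeq accessions, and others kept the name in the file. The genes, their lists and the 2 dim arrays were chosen with earlier results of these data known. Genes outside the 10 were named as those with the smallest p of their list. Not every gene so ranked is reported here. Markers and likeness genes followed written lists and ranks. Some named markers (Ncr1, Klrb1c, Eomes, Cd3e) were chosen after their values were seen. The number of arrays limits the precision.

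Mice of the same number shared a slide, per the barcodes in the file headers. Deviations from group means of same-numbered mice correlated at 0.14 to 0.69 for selenium against control (5 of 5 pairs over 0.1), -0.082 to 0.63 for ptaquiloside against control (3 of 5) and 0.024 to 0.65 for ptaquiloside+selenium against control (4 of 5). Alternatives were median and quantile scaling, normexp, filters, 1 probe per gene, outlier spots kept, the replicate block, array weights, each array left out, the methods' t-test and the deposited table.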

Additional observations from a re-analysis of the deposited data

Results flagged for a closer look

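A value was noted where the highest or lowest mouse of a group of 5 lay apart from the rest by more than 0.71 of the group's whole range, the critical value of Dixon's test at 95%. Chance marks about 1 in 20 groups, and 10 of the 52 groups of 13 probes and 4 treatments were marked. Ptaquiloside mouse 4, the dimmest array, accounts for 4 of them: Il15ra at 1.93 above the other 4 mice (-0.61 to -0.28), and below them Il18rap at -0.097 (others 3.10 to 3.72), Il2rg at -0.99, where it was not well above background (others 2.73 to 3.17) and Stat4 at 2.80 (others 4.17 to 4.70). Ptaquiloside+selenium mouse 5, the second dimmest, accounts for another 4, all low. These were Il12rb2 at -2.88 (others -0.54 to 0.25), the second Il15ra probe at -3.82, where it was not well above background (others -2.65 to -2.21), Il18rap at 2.51 (others 3.45 to 3.78) and Il2rg at 0.87 (others 3.05 to 3.27). The last 2 were on arrays of ordinary brightness, selenium mouse 3 for Il18rap at 3.09 (others 3.61 to 3.79) and control mouse 2 for Il12rb2 at -0.82 (others -0.16 to 0.10). The cause of these values was not tested.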

How the results depend on the processing

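No call changed with the processing except 1. All 7 tests were run under every alternative except the methods' t-test, which was run against control only. The counts of called probes stayed at 0, except that the interaction ran from 0 to 1 when arrays were left out in turn. There 1 probe was called without ptaquiloside+selenium mouse 4. The lowest adjusted p of any of the 10 genes over 1116 values was 0.402. The methods' t-test against control held 216 probes for ptaquiloside, 898 for selenium and 252 for ptaquiloside+selenium at unadjusted p under 0.05 and 0 after adjustment. The replicate block left every difference over 20 arrays as it was and changed no call. Signs were less stable. Of 33 member differences, signs opposite to those of the report were found as follows, for ptaquiloside against control unless named. With median scaling, Il12rb2 was -0.12, Il18r1 -0.21 and, for selenium, Il15ra 0.026, and this scaling moved the median of all probes by -0.23 for ptaquiloside, so that 3 of the 10 genes lay above it under both scalings. With quantile scaling, which moved it by -0.11, Il2rb was 0.0099 and Il12rb2 -0.038, and 6 of the 10 genes lay above it. With normexp, Il18r1 was -0.089 and, for ptaquiloside+selenium, Il18rap 0.033 and Stat4 0.028. Under normexp 2 of the 10 genes lay above the median of all probes for ptaquiloside. With the replicate block and without ptaquiloside mouse 4, Il2rb was 0.23, Il2rg 0.060, Il18rap 0.12, Il21r 0.10 and Stat4 0.083. Array weights were 0.0289 for ptaquiloside mouse 4 and 0.2284 for ptaquiloside+selenium mouse 5. With these weights Il2rb was 0.25, Il2rg 0.060, Il12rb1 0.044, Il18rap 0.23, Il21r 0.13, Jak3 0.089 and Stat4 0.14. For ptaquiloside+selenium, Il2rg was 0.21, Il18rap 0.21 and Stat4 0.16. Without the 2 dimmest arrays, a choice made after seeing the data, Il2rb was 0.25, Il2rg 0.037, Il18rap 0.10, Il21r 0.10 and Stat4 0.098, and, for ptaquiloside+selenium, Il2rg 0.20, Il12rb2 0.067, Il18rap 0.17 and Stat4 0.11. With the replicate block on the same 18 arrays these were 0.23, 0.026, 0.099, 0.086 and 0.073, and 0.15, 0.13, 0.17 and 0.091. In the authors' deposited table Il2rb was 0.28, Il2rg 0.021, Il15ra -0.010, Il18rap 0.15, Il21r 0.16, Jak3 0.019 and Stat4 0.12, and, for ptaquiloside+selenium, Il12rb1 -0.032, Il18r1 -0.0026 and Jak3 -0.040. There the median over the 10 genes was -0.25 for ptaquiloside+selenium against ptaquiloside and -0.41 for the interaction. The deposited values were fitted as they stand, not scaled between arrays, so these differences also hold the brightness of each array. The column of ptaquiloside+selenium mouse 5 had the lowest median, 22.78. Leaving out arrays in turn changed 28 of 660 signs. The ranges for ptaquiloside were -0.21 to 0.25 for Il2rb, -1.01 to 0.037 for Il2rg, -0.039 to 0.25 for Il12rb2, -0.073 to 0.23 for Il18r1, -0.85 to 0.10 for Il18rap, -0.35 to 0.10 for Il21r and -0.38 to 0.098 for Stat4. For selenium Il15ra ran from -0.12 to 0.042. For ptaquiloside+selenium the ranges were -0.40 to 0.20 for Il2rg, -0.72 to 0.067 for Il12rb2, -0.033 to 0.17 for Il18r1, -0.15 to 0.17 for Il18rap, -0.046 to 0.23 for Jak3 and -0.099 to 0.11 for Stat4. The cause of these changes was not tested beyond the arrays left out. The number of mice, 5 a group, limits what could be detected, and the dim signal of ptaquiloside mouse 4 left Il2rg not well above background there.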
